A study of Mus musculus with 10 samples.

Results

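Ahnak, Vim, Anxa2, S100a4, S100a6, S100a10, S100a11, Lgals1 and Lgals3 are 9 genes of the membrane-associated cytoskeleton and of calcium- and glycan-binding proteins. They were taken by name from the deposited table, which lists all 9 among its 14450 genes. The table holds 10 RNA-seq libraries. They were made from mature B cells of the bone marrow of unchallenged (steady-state) Chat-GFP mice, separated by fluorescence-activated sorting. In this reporter strain green fluorescence is meant to mark cells that use the locus of Chat, the acetylcholine-synthesising enzyme. There were 5 libraries of Chat+ B cells and 5 of Chat- B cells, so both groups carry the reporter and differ in the sorted fluorescence. The labels give no age, sex, antibody gate or number of animals, and p-values therefore measure the spread between these libraries, which may be technical.

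Ahnak encodes a giant scaffold protein beneath the plasma membrane, where it binds the complex that annexin A2 (Anxa2) forms with S100A10. Annexins bind acidic membrane lipids when calcium is present, and S100 proteins are small dimers that bind partner proteins, most of them upon calcium binding, with S100A10 as an exception that needs none. Vimentin is the intermediate filament protein of haematopoietic and mesenchymal cells, and galectins are lectins that bind galactose-containing glycans inside and outside the cell. In lymphocytes several of these genes are known for higher expression in memory, activated and innate-like cells than in naive cells, and most are also strongly expressed by macrophages and stromal cells.

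Promoter windows, 250 bases before to 50 bases after the annotated start, were found in the RefSeq table (GRCm38.p6) for 7 of the 9 genes. The windows of 5 genes are shown because the results turn on them. Ahnak and Vim separated the groups as scaled in the deposited table, S100a6 had the largest estimated difference, and Anxa2 and S100a11 were highest in a single Chat- library. The Ahnak window lies at chr19:8989034-8989333, that of Vim at chr2:13574061-13574360, that of S100a6 at chr3:90612644-90612943, that of Anxa2 at chr9:69453433-69453732 and that of S100a11 at chr3:93520246-93520545, all on the plus strand. Capitals mark matches, on either strand, to 5 motifs searched: the TATA element TATAAA, the CCAAT box CCAAT, the GC box GGGCGG, the AP-1 type element TGANTCA and the CArG box of serum response factor.
Ahnak: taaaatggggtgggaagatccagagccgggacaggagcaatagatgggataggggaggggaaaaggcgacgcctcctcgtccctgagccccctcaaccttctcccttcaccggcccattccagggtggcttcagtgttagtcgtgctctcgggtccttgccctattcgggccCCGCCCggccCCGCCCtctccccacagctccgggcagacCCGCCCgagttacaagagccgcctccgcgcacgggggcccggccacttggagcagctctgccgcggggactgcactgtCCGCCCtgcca
Vim: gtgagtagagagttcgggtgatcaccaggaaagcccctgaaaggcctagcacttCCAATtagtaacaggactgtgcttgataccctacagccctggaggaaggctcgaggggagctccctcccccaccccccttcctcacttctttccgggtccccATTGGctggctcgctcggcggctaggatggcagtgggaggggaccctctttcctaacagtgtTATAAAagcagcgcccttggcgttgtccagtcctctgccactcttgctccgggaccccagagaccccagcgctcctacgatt
S100a6: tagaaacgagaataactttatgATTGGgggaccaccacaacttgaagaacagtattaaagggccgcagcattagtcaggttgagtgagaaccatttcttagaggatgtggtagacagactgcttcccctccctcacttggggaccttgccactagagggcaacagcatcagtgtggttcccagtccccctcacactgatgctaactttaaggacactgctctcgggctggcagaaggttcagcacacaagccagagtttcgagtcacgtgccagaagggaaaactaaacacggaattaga
Anxa2: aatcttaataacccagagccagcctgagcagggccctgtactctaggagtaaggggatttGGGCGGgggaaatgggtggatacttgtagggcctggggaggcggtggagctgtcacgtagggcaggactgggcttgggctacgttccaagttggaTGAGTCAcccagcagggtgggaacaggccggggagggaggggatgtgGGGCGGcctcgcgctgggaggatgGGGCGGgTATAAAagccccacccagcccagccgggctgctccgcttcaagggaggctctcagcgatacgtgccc
S100a11: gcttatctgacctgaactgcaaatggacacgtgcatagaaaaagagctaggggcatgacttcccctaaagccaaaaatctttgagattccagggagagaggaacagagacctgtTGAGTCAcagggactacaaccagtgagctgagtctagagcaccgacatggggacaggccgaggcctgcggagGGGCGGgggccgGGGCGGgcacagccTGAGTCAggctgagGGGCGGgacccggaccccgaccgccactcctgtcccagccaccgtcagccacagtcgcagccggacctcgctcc

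These windows differ in their elements. The Ahnak window holds 4 copies of GGGCGG, all read on the opposite strand, and no TATAAA, whereas the Vim window holds TATAAA at -32 and CCAAT matches at -196 and -94 relative to the start. The Anxa2 window combines 3 copies of GGGCGG with TATAAA at -17 and TGANTCA at -95, and that of S100a11 has 3 copies of GGGCGG and TGANTCA at -136 and -38. The S100a6 window holds a single CCAAT match at -228. Over the 7 member windows, TGANTCA was present in 2, against 7.81% of all 32851 windows of this length. GGGCGG was present in 4 of 7 against 35.7% of all, CCAAT in 3 against 37.4%, TATAAA in 3 against 13.6% and the CArG box in 0 against 1.63%. No motif overlapped another in the windows shown.

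The libraries had 21520000 to 30050000 estimated reads, and B cell identity was strong in all of them, with 13 B cell markers summing to 20730 to 22720 CPM (counts per 1000000 counts) in Chat+ and 21410 to 22030 CPM in Chat-. Of 9 T and NK cell markers, only Cd4 was listed in the table, at 0 to 1.27 CPM. The library Chat- replicate 4 stood apart. In it 1213 genes were undetected, that is at the table's floor, compared with 62 to 682 elsewhere, and mitochondrial transcripts made up 11.87% of its CPM against 2.27% to 3.85% elsewhere. Its 13 monocyte and macrophage markers summed to 295 CPM, against 84.4 to 118 CPM in the other Chat- libraries and 146 to 207 CPM in Chat+. Because of this, the difference of each of the 9 genes is given with and without Chat- replicate 4.

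With limma over all 14450 genes and Benjamini-Hochberg adjustment, 0 of the 9 members passed a threshold of 0.05, where 0.00692% of all genes did (1 gene). At an unadjusted p under 0.05, 5 of the 9 members (Ahnak, Vim, S100a6, Anxa2 and Lgals1) were higher in Chat+ and 0 were lower, against 3.49% of all genes higher. This count of 5 depended on the processing. It was 2 with scaling by the median ratio, 3 with quantile normalization, 3 with a replicate block and 7 with library quality weights. In these fits 406, 382, 535 and 907 of the 14450 genes were higher at that p. The median log2 fold change was 0.49 over the members and 0.036 over all genes, and 8 of the 9 members had a positive estimate, as did 57.0% of all genes. The members were chosen with earlier results of these data known, so these counts describe the members and are no independent support for a direction. All of these estimates come from pooled cells, in which more cells expressing a gene and more RNA per cell cannot be told apart.

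**Figure D1:**
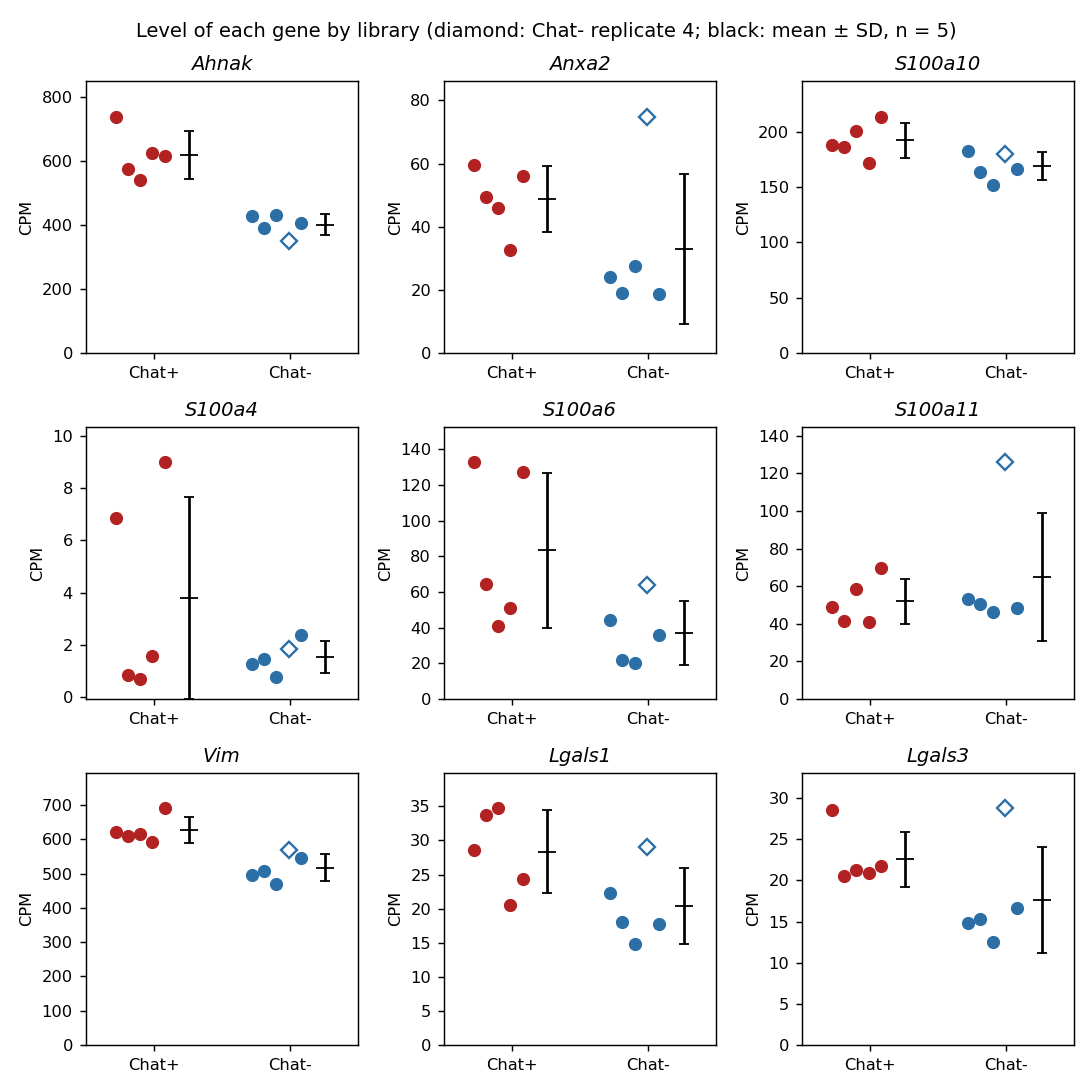
Level of each of the 9 genes in CPM (vertical axes) in the 5 Chat+ libraries (red) and the 5 Chat- libraries (blue), with the mean ± SD in black and Chat- replicate 4 as an open diamond. All Chat+ libraries lie above all Chat- libraries for Ahnak and Vim, and the open diamond is the highest point of all libraries for Anxa2, S100a11 and Lgals3.

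Ahnak, the membrane scaffold gene, had the smallest p of the members. Its level was 739, 575, 541, 624 and 616 CPM in Chat+ replicates 1 to 5 and 427.9, 392.0, 432.8, 349.7 and 406.3 CPM in Chat- replicates 1 to 5. Every Chat+ library was thus above every Chat- library, the gap lying between 541 and 433 CPM. The Chat+ mean was 619 ± 74.9 CPM and the Chat- mean 402 ± 33.4 CPM (SD, n = 5 each), a 1.54-fold difference with a 95% confidence interval of 1.31 to 1.80 on the log2(CPM + offset) scale. This corresponds to a log2 fold change of 0.62 ± 0.11 (SE), the rank 9 smallest p of the table. The gene missed the threshold over all genes (limma, adjusted p = 0.11), while the exact two-sided permutation test for this gene alone gave p = 0.0079, the smallest value that 5 against 5 libraries can give.

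Unlike the other members, Ahnak had its lowest level of all 10 libraries in Chat- replicate 4, at 0.843 times the mean of the other Chat- libraries. Without that library the difference was 1.49-fold (limma, adjusted p = 0.092). With library quality weights, which let limma count a variable library less, Ahnak passed (log2 fold change 0.62, adjusted p = 0.0037). The gene lies on chromosome 19 at 8989284 to 9076914, has 18339 bases of exon, and shares 0.0183% of its 31-base words with transcripts of other genes.

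Anxa2, the lipid-binding partner of S100A10, separated the groups except for 1 library. Its level was 59.4, 49.6, 46.1, 32.8 and 56.2 CPM in Chat+ replicates 1 to 5. In Chat- replicates 1, 2, 3 and 5 it was 24.2, 19.1, 27.6 and 18.9 CPM, while Chat- replicate 4 had 74.9 CPM, more than any Chat+ library. With all libraries the difference was 1.69-fold (95% confidence interval 1.03 to 2.78, limma adjusted p = 1.0, exact permutation p = 0.095). Without Chat- replicate 4 it was 2.15-fold (1.64 to 2.83), all Chat+ libraries lay above the remaining Chat- libraries, and the gene still missed the threshold (limma, adjusted p = 0.078). It passed with library quality weights, in which Chat- replicate 4 had the lowest weight, 0.132 (log2 fold change 0.97, adjusted p = 0.040). Anxa2 (chromosome 9, 69453620 to 69491795) overlaps the antisense gene Gm16144. The strand setting of the quantification is not given in the sources used here, and overlap was examined for whole genes, not for exons. Whether reads of Gm16144 entered the Anxa2 level was not tested.

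S100a10, the annexin A2 partner that holds its active form without calcium, was among the most evenly expressed members. Its level was 188, 186, 201, 172 and 214 CPM in Chat+ and 183, 164, 152, 180 and 167 CPM in Chat-. Only Chat+ replicate 4 fell within the Chat- range, and Chat- replicate 4 was not unusual here, at 1.08 times the mean of the other Chat- libraries. The difference was 1.14-fold (95% confidence interval 0.991 to 1.3, limma adjusted p = 1.0, exact permutation p = 0.040). The log2 fold change was 0.18 ± 0.09 (SE) with all libraries and 0.21 ± 0.09 without Chat- replicate 4 (limma, adjusted p = 0.64).

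Since annexin A2 and S100A10 act as a complex, the level of S100a10 relative to Anxa2 was compared within each library, which is independent of the library's total. The log2 ratio of CPM was 1.66, 1.91, 2.12, 2.39 and 1.92 in Chat+ replicates 1 to 5. It was 2.91, 3.09, 2.45 and 3.13 in Chat- replicates 1, 2, 3 and 5, all above the Chat+ libraries, and 1.26 in Chat- replicate 4, below them. With all libraries the means were 1.999 ± 0.271 and 2.57 ± 0.78 (SD, n = 5), and the difference did not pass the exact permutation test (p = 0.15, adjusted over 3 ratios 0.45). Without Chat- replicate 4 the ratio was lower in Chat+ by 0.90 on the log2 scale (difference -0.90, exact permutation p = 0.0079, adjusted p = 0.024). This p is the smallest that 5 against 4 libraries can give. The adjustment covers the 3 ratios and not the choice of the library left out. Leaving out any other single library gave no pass (exact permutation, adjusted p = 0.33 to 0.79). Per kilobase of exon, S100a10 exceeded Anxa2 in all libraries, by 5.70 to 9.45 times in Chat+, by 9.92 to 15.9 times in the other Chat- libraries and by 4.33 times in Chat- replicate 4.

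**Figure D2:**
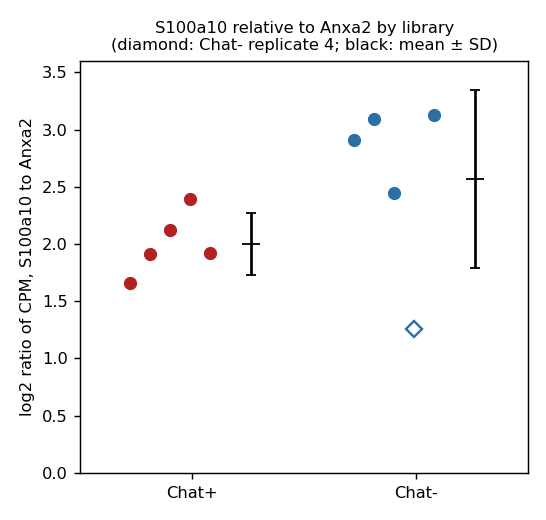
Log2 ratio of S100a10 to Anxa2 CPM (vertical axis) in each Chat+ library (red) and Chat- library (blue), with the mean ± SD in black and Chat- replicate 4 as an open diamond. The 4 filled Chat- points, 2.45 to 3.13, lie above the Chat+ points, 1.66 to 2.39, and the open diamond at 1.26 lies below them.

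S100a6, also called calcyclin and expressed in many proliferating and motile cells, had the largest estimated difference. Its level was 133, 64.5, 40.8, 51.3 and 127 CPM in Chat+ and 44.3, 21.9, 20.3, 63.9 and 35.8 CPM in Chat-. Chat+ replicates 1 and 5 were about as high as one another and above the rest, and Chat+ replicates 3 and 4 lay within the Chat- range. The means were 83.3 ± 43.5 and 37.3 ± 17.9 CPM (SD, n = 5), a 2.19-fold difference (95% confidence interval 1.23 to 3.89, limma adjusted p = 0.83, exact permutation p = 0.056). Without Chat- replicate 4 the difference was 2.56-fold (limma, adjusted p = 0.25). With library quality weights S100a6 passed (log2 fold change 1.48, adjusted p = 0.042). The highest weights, 3.21 and 2.86, fell on Chat- replicates 2 and 3, the libraries with the lowest S100a6 levels. Chat+ replicates 3 and 5, the lowest and the second highest of Chat+, had weights of 0.493 and 0.37.

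S100a4, whose product binds non-muscle myosin in motile cells, was near the bottom of the members' levels. It had 6.86 and 8.99 CPM in Chat+ replicates 1 and 5, the same libraries that were high for S100a6, and 0.831, 0.699 and 1.59 CPM in Chat+ replicates 2, 3 and 4. The Chat- libraries had 0.775 to 2.40 CPM, so the other Chat+ libraries were no higher than Chat-. At its lowest the value rests on about 19 estimated reads. The log2 fold change was 0.62 ± 0.69 (SE, limma adjusted p = 1.0) with all libraries and 0.71 ± 0.73 without Chat- replicate 4 (adjusted p = 0.90), and a difference was not detectable. Of its 31-base words, 49.2% also occur in the overlapping gene Gm42674, so its reads are of partly uncertain origin.

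S100a11, which encodes a partner of annexin A1, was the 1 member with a lower mean in Chat+. Its level was 48.7, 41.8, 58.6, 40.7 and 69.6 CPM in Chat+ and 53.15, 50.74, 46.07, 125.8 and 48.56 CPM in Chat-. Chat- replicate 4 was far above the other 9 libraries, and the remaining Chat- libraries lay in the narrow span of 46.1 to 53.2 CPM, inside the Chat+ range. The log2 fold change was -0.23 ± 0.26 (SE, limma adjusted p = 1.0) with all libraries and 0.035 ± 0.15 without Chat- replicate 4 (95% confidence interval -0.30 to 0.37). With library quality weights the estimate was -0.12 with all libraries and -0.10 without Chat- replicate 4, so its direction was not settled by leaving that library out. Transcripts of 6 other genes, among them the pseudogenes Gm12854 and S100a11-ps, share 48.9% of its 31-base words.

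These 4 S100 genes lie on chromosome 3 in pairs. S100a4 (90603771 to 90606045) and S100a6 (90612882 to 90624181) are 6.84 kb apart, and S100a11 (93520488 to 93526287) and S100a10 (93555080 to 93564643) are 28.8 kb apart and 2.90 Mb from the first pair. Within the first pair, both genes had their highest levels in Chat+ replicates 1 and 5. After centring on the group means, S100a4 and S100a6 gave Pearson's r = 0.78 and Spearman's rho = 0.76 over 10 libraries (exact permutation within groups, p = 0.020 and 0.018, adjusted over 6 pairs 0.12 and 0.11). Without the 2 libraries farthest from the median of S100a4, which were Chat+ replicates 1 and 5, r was 0.47, so the relation rests on those libraries.

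The other pairs tested in the same way gave no relation past the threshold. Ahnak with Anxa2 had r = -0.29, Ahnak with S100a10 r = -0.31 and Anxa2 with S100a10 r = 0.44. Lgals1 with Lgals3 had r = 0.62 and Vim with Lgals1 r = 0.38, and the adjusted permutation p of these 5 pairs was 0.28 to 0.42. Spearman's rho for them ran from -0.21 to 0.33 with adjusted p of 0.62 to 0.70. The sign of the Ahnak and Anxa2 value turned when Chat- replicate 4 was left out (r = 0.43). The log2 ratio of S100a4 to S100a6 averaged -4.94 ± 0.95 (SD) over the Chat+ and -4.44 ± 0.60 over the Chat- libraries and did not pass either (n = 5 each, exact permutation p = 0.37, adjusted p = 0.56). Leaving out Chat- replicate 4 gave a Chat- mean of -4.29 ± 0.58 (n = 4, exact permutation p = 0.30, adjusted p = 0.45).

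Vim, the vimentin gene, was the most abundant member per length. Its level was 621, 610, 617, 593 and 691 CPM in Chat+ and 495, 509, 470, 570 and 546 CPM in Chat-. The groups did not overlap in CPM, with the lowest Chat+ library at 593 CPM and the highest Chat- library, replicate 4, at 570 CPM. The difference was small, at 1.21-fold (95% confidence interval 1.05 to 1.39, log2 fold change 0.28 ± 0.09 SE), and missed the threshold (limma, adjusted p = 0.82, exact permutation p = 0.0079). Without Chat- replicate 4 it was 1.24-fold (adjusted p = 0.24), and with library quality weights the adjusted p was 0.060. The separation of Vim depended on the scaling. Scaling by the median ratio divides Chat- replicate 4 by 0.9391 and Chat+ replicate 4 by 1.033, after which the groups overlap. With that scaling the difference was 1.17-fold (95% confidence interval 0.997 to 1.38, limma unadjusted p = 0.053). The gene lies on chromosome 2 at 13573927 to 13582826.

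Lgals1 encodes galectin-1, a secreted and cytosolic lectin that dampens lymphocyte responses and is induced in activated and differentiating B cells. Its level was 28.5, 33.8, 34.7, 20.5 and 24.3 CPM in Chat+ and 22.24, 18, 14.83, 29.03 and 17.8 CPM in Chat-. Chat+ replicates 2 and 3 were above all Chat- libraries and the others overlapped with them. The difference was 1.40-fold (95% confidence interval 1.03 to 1.91, limma adjusted p = 1.0, exact permutation p = 0.071). Without Chat- replicate 4 it was 1.54-fold (adjusted p = 0.30).

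Lgals3 encodes galectin-3, the lectin also known as the macrophage antigen Mac-2. It had 28.5 CPM in Chat+ replicate 1 and 20.6 to 21.8 CPM in the other Chat+ libraries. The Chat- libraries had 14.8, 15.3, 12.5 and 16.7 CPM in replicates 1, 2, 3 and 5, all below Chat+, and 28.8 CPM in replicate 4, above Chat+. The difference was 1.33-fold with all libraries (95% confidence interval 0.964 to 1.83, limma adjusted p = 1.0, exact permutation p = 0.11) and 1.52-fold without Chat- replicate 4 (1.21 to 1.90, adjusted p = 0.20, exact permutation p = 0.0079). The log2 ratio of Lgals1 to Lgals3 averaged 0.31 ± 0.37 (SD) over the Chat+ and 0.23 ± 0.22 over the Chat- libraries (n = 5 each, exact permutation p = 0.75, adjusted p = 0.75). Leaving out Chat- replicate 4 gave a Chat- mean of 0.29 ± 0.21 (n = 4, exact permutation p = 0.94, adjusted p = 0.94).

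**Figure D3:**
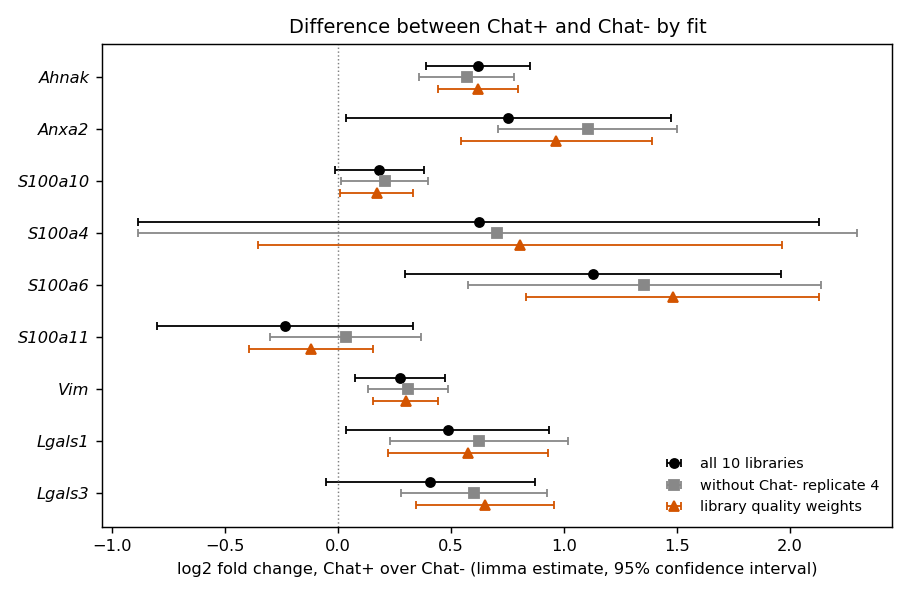
Log2 fold change of Chat+ over Chat- (horizontal axis) with its 95% confidence interval for each gene, from limma with all 10 libraries (black circles), without Chat- replicate 4 (grey squares) and with library quality weights (orange triangles). The Ahnak estimate stays between 0.57 and 0.62, that of Anxa2 runs from 0.76 to 1.11, and that of S100a11 lies on both sides of 0.

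In CPM, the 5 Chat+ libraries lay above every Chat- library for 2 of 9 members, Ahnak and Vim, against 1.12% of all genes. For Vim this did not hold after scaling by the median ratio. With Chat- replicate 4 left out this held for 4 of 9, Anxa2 and Lgals3 being added, against 2.35% of all genes. Also without that library, 7 of 9 members had an unadjusted p under 0.05 and a higher level in Chat+ (all but S100a4 and S100a11), against 5.36% of all genes, and 0 passed after adjustment. With library quality weights and all libraries, 3 of 9 members passed (Ahnak, Anxa2 and S100a6), all higher in Chat+, against 0.644% of all genes.

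Chat- replicate 4 held the highest level of all 10 libraries for 3 of the 9 members (Anxa2, S100a11 and Lgals3), while 22.1% of all genes were highest there. It ranked first within its group for 6 of the 9 members, and the share of all genes for that rank was not computed. Relative to the mean of the other Chat- libraries it had 3.33 times the Anxa2 level, 2.54 times S100a11, 2.09 times S100a6, 1.94 times Lgals3 and 1.59 times Lgals1, and 1.26, 1.13 and 1.08 times S100a4, Vim and S100a10. In the Chat+ group, replicates 1 and 5 ranked first for 4 members each, and replicate 4 ranked last for 5. In the Chat- group, replicate 3 ranked last for 7. The shares of all genes for these ranks were not computed either.

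Monocyte and macrophage markers, like most members, had higher estimates in Chat+ and high levels in Chat- replicate 4. All 13 were listed and none was at 0 in any library. Their estimates were higher in Chat+ for 10 of 13 (median log2 fold change 0.19, and 0.72 without Chat- replicate 4), and 0 passed with limma. Mpeg1, the most abundant of them and the 1 gene of the list whose groups did not overlap, averaged 79.6 ± 14.1 CPM (SD) over Chat+ and 49.0 ± 11.3 CPM over Chat- (n = 5 each, limma adjusted p = 0.34). After setting Mpeg1 apart, a choice made once the values were seen, the other 12 markers summed to 70.2 to 113 CPM in Chat+, to 50.3 to 68.7 CPM in Chat- replicates 1, 2, 3 and 5, and to 234 CPM in Chat- replicate 4. The defining receptor gene Csf1r had 0.775 to 8.13 CPM in Chat+, 1.83 to 2.46 CPM in those 4 Chat- libraries and 26.8 CPM in replicate 4. Within Chat+ the order of libraries followed the markers for some members and not for others. Replicates 1 and 4 had the lowest sum of the 12 markers, 70.2 CPM each. Of the Chat+ libraries, replicate 1 had the highest Ahnak, Anxa2, S100a6 and Lgals3 levels. Replicate 4 had the lowest Anxa2, S100a10, S100a11, Vim and Lgals1 levels. Replicate 3 had the highest marker sum, 113 CPM, the highest Lgals1 level and the lowest Ahnak, S100a4 and S100a6 levels. The part of such transcripts in the members' differences was not tested.

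**Figure D4:**
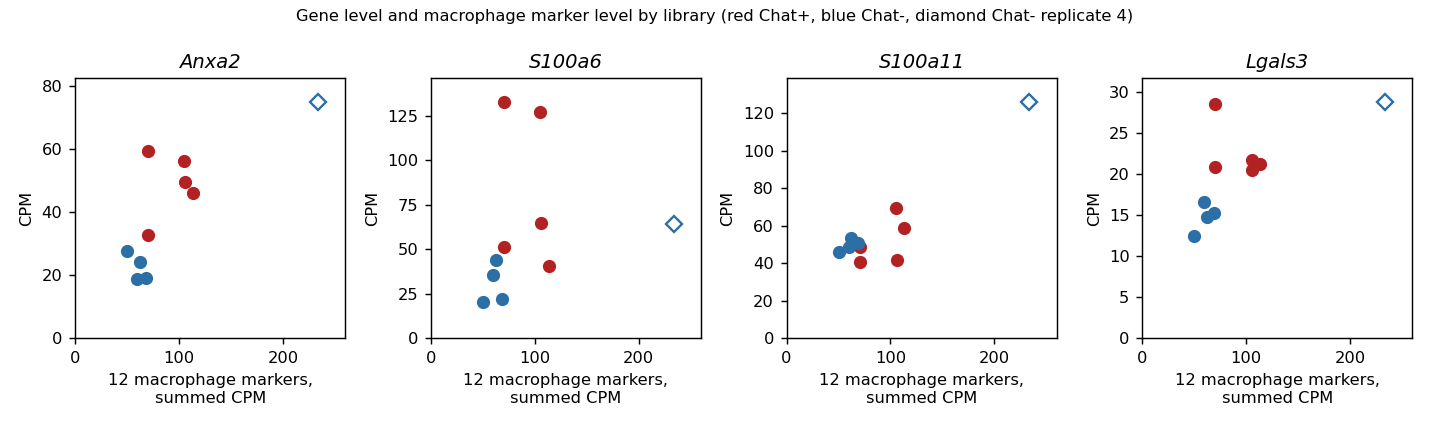
Level of Anxa2, S100a6, S100a11 and Lgals3 in CPM (vertical axes) against the summed CPM of 12 monocyte and macrophage markers (horizontal axes, Mpeg1 left out) in Chat+ (red) and Chat- (blue) libraries. Chat- replicate 4 (open diamond, 234 CPM of markers) lies at the far right of each panel, and the other Chat- libraries, at 50.3 to 68.7 CPM, lie at the left.

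Stromal and endothelial markers also stood out in Chat- replicate 4. Of 14 markers 12 were listed, and 11 had a higher estimate in Chat+ (median log2 fold change 0.67, and 1.27 without Chat- replicate 4). Their sum was 287 to 418 CPM in Chat+, 302 to 324 CPM in the other Chat- libraries and 572 CPM in Chat- replicate 4. Most of this sum was Pecam1, at 247 to 261 CPM in Chat+, 253 to 284 CPM in the other Chat- libraries and 177 CPM in replicate 4. With Pecam1 set apart, again once the values were seen, the sum was 38.7 to 158 CPM in Chat+, 34.0 to 48.5 CPM in the other Chat- libraries and 394 CPM in Chat- replicate 4. The collagen gene Col1a1 had 8.402 to 42.42 CPM in Chat+, 7.59 to 12.4 CPM in the other Chat- libraries and 111 CPM in replicate 4. In contrast, 11 neutrophil markers summed to 27.0 to 143 CPM in Chat+ and 47.4 to 126 CPM in Chat-, and 8 erythroid markers to 535 to 899 CPM and 460 to 1104 CPM. Plasma cell markers (7 of 8 listed) summed to 407 to 683 CPM in Chat+ and 353 to 430 CPM in Chat-. Of these 7, 4 had a higher and 3 a lower estimate in Chat+, 6 were higher without Chat- replicate 4, and 0 passed with limma. The 3 with the smallest p were Jchain, at 97.0 ± 85.6 and 22.7 ± 9.40 CPM, Mzb1, at 182 ± 24.1 and 132 ± 40.5 CPM, and Derl3, at 4.23 ± 1.66 and 1.68 ± 0.95 CPM (SD, n = 5 each). Dendritic cell markers (6 of 7 listed) summed to 21.5 to 39.4 CPM in Chat+ and 21.7 to 44.3 CPM in Chat-.

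Levels between genes were compared as CPM per kilobase of exon. In Chat+ the order was Vim (286 ± 17.3), S100a10 (239 ± 19.7), S100a6 (103 ± 53.7), S100a11 (101 ± 23.9), Lgals1 (35.5 ± 7.60), Ahnak (33.8 ± 4.09), Anxa2 (33.7 ± 7.17), Lgals3 (14.2 ± 2.11) and S100a4 (7.62 ± 7.75), all CPM per kb, SD, n = 5. Vim and S100a10 did not overlap between libraries, nor did S100a10 and S100a6, S100a11 and Lgals1, or Anxa2 and Lgals3, while the other neighbours in this order overlapped. In Chat- the order was Vim (236 ± 18.3), S100a10 (211 ± 15.7), S100a11 (127 ± 66.9), S100a6 (46.0 ± 22.1), Lgals1 (25.5 ± 6.89), Anxa2 (22.8 ± 16.4), Ahnak (21.9 ± 1.82), Lgals3 (11.1 ± 4.05) and S100a4 (3.12 ± 1.23). Here S100a11 and S100a6, Ahnak and Lgals3, and Lgals3 and S100a4 did not overlap, and the other neighbours did. Vim stood above 98.2% of the 14374 genes with an exon length in Chat+ and above 97.9% in Chat-, and S100a4 above 50.2% and 34.0%.

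**Figure D5:**
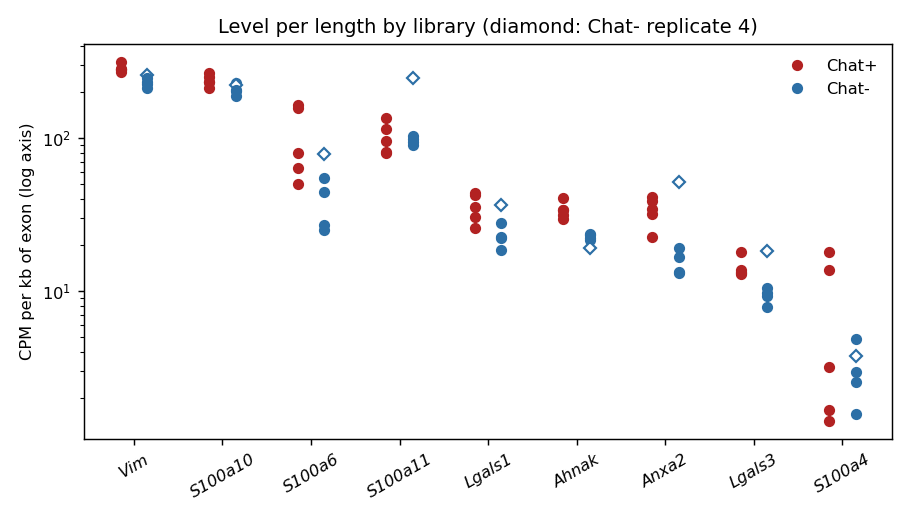
CPM per kilobase of exon (vertical log axis) of each gene in every Chat+ (red) and Chat- (blue) library, ordered by the Chat+ mean, with Chat- replicate 4 as an open diamond. Vim and S100a10 lie at the top, at 286 and 239 CPM per kb in Chat+, and S100a4 at the bottom, at 7.62 CPM per kb.

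Other genes of the same families did not pass the test in either direction. The S100 family list had 5 of 13 further genes in the table, 2 higher and 3 lower in Chat+. S100a13, which takes part in non-classical secretion, had 17.6 ± 3.87 and 13.2 ± 2.08 CPM (SD, n = 5, limma adjusted p = 1.0). S100a8 and S100a9, the calprotectin genes of neutrophils and monocytes, had 11.3 ± 6.25 and 15.6 ± 7.84 CPM, and 18.05 ± 10.04 and 23.02 ± 9.51 CPM. S100a14 had 1.11 ± 0.69 and 0.20 ± 0.14 CPM without overlap between the groups (adjusted p = 0.80), and is named after its values were seen.

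Of 11 further annexins 9 were listed, 6 with a higher and 3 with a lower estimate, and a median log2 fold change of 0.15. Without Chat- replicate 4 the estimate was higher for 7 of 9. The most abundant, Anxa6, averaged 350 ± 36.3 CPM (SD) over Chat+ and 301 ± 91.4 CPM over Chat- (n = 5 each), with 149 CPM in Chat- replicate 4 and 339 CPM as the mean of the other Chat- libraries. It was thus low in the library where Anxa2 was high. Anxa1, the partner of S100A11, had 18.5 ± 3.76 and 15.0 ± 6.88 CPM, Anxa11 had 123 ± 7.16 and 112 ± 12.3 CPM, and Anxa5 had 57.6 ± 7.09 and 52.0 ± 5.76 CPM (limma adjusted p = 1.0 each). Of 9 further galectin genes 4 were listed, and all 4 had a lower estimate in Chat+ (median log2 fold change -0.11). Lgals8 had 98.3 ± 16.4 and 109 ± 15.2 CPM, Lgals9 77.0 ± 22.0 and 78.8 ± 9.91 CPM, and Lgals4 15.92 ± 5.977 and 15.49 ± 4.996 CPM. The Lgals4 estimate, a log2 fold change of -0.006, was close to no difference, and its CPM mean was slightly higher in Chat+. The remaining gene, Lgalsl, was near the floor, at 0.85 ± 1.08 and 1.11 ± 0.53 CPM, and was detected in 8 of the 10 libraries. None of these passed.

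Of 20 intermediate filament, lamin and linker genes 11 were listed, and all 11 had a higher estimate in Chat+ (median log2 fold change 0.52, 0 past the threshold with limma). Without Chat- replicate 4 the estimate was higher for 10 of 11. Lmna, the A-type lamin gene, had 21.8 ± 5.44 CPM in Chat+, 9.23 ± 2.75 CPM in the other Chat- libraries (n = 4) and 32.0 CPM in Chat- replicate 4, the same arrangement as Anxa2 and Lgals3. Lmnb1, a B-type lamin gene, had 98.1 ± 25.0 and 68.5 ± 16.6 CPM, the filament linker gene Plec 335 ± 48.2 and 268 ± 64.7 CPM, and the keratin gene Krt8 10.3 ± 5.15 and 7.93 ± 6.96 CPM (SD, n = 5). Lmnb1 and Plec were low in Chat- replicate 4, at 40.3 and 181 CPM, against means of 75.5 and 290 CPM in the other Chat- libraries. Krt8 was high there, at 20.1 CPM against 4.90 CPM.

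Of 16 genes related to Ahnak or to membrane repair 13 were listed, 8 with a higher and 5 with a lower estimate (median log2 fold change 0.071). Without Chat- replicate 4 the estimate was higher for 7 of 13. Capn2, the large subunit of the calcium-dependent protease m-calpain, averaged 45.8 ± 2.76 CPM (SD) over Chat+ and 32.6 ± 3.28 CPM over Chat-, without overlap (n = 5 each, log2 fold change 0.49, limma adjusted p = 0.28). The phospholipid scramblase gene Plscr1 had 9.07 ± 2.32 and 5.11 ± 1.02 CPM (adjusted p = 0.73), the calcium-binding repair gene Pdcd6 61.0 ± 3.97 and 48.9 ± 7.95 CPM (adjusted p = 0.98) and the membrane trafficking gene Ehd4 55.6 ± 12.1 and 65.3 ± 8.396 CPM (adjusted p = 1.0).

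Partners of these proteins outside their families gave no call. Of 8 plasminogen system genes, which include the receptors that work beside annexin A2 and S100A10, 5 were listed, 4 with a higher estimate. Without Chat- replicate 4 all 5 were higher. Plaur had 55.2 ± 7.14 and 49.0 ± 5.56 CPM, Eno1 349 ± 19.1 and 313 ± 63.5 CPM, and Plgrkt 58.5 ± 14.6 and 56.1 ± 10.5 CPM. All 7 S100 partner genes were listed, 6 with a higher estimate, and 5 without Chat- replicate 4. Cacybp, which encodes the calcyclin-binding protein, had 74.7 ± 12.8 and 65.1 ± 5.40 CPM. Myh9, the myosin gene whose product S100A4 binds, had 1481 ± 215 and 1451 ± 385 CPM. It had 819 CPM in Chat- replicate 4 and a mean of 1609 CPM in the other Chat- libraries. Ppfibp1 had 10.5 ± 3.63 and 8.72 ± 1.86 CPM, and the receptor gene Ager 5.67 ± 3.32 and 7.38 ± 2.52 CPM.

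All 11 genes of galectin glycan synthesis and galectin-binding glycoproteins were listed, 9 with a higher estimate (median log2 fold change 0.094, 0 past the threshold with limma). Without Chat- replicate 4 the estimate was higher for 7 of 11. Itgb1, the integrin beta chain bound by galectin-1, had 81.2 ± 15.7 and 55.3 ± 8.64 CPM (SD, n = 5, adjusted p = 0.47). The galactosyltransferase gene B4galt1 had 96.1 ± 14.3 and 82.7 ± 5.17 CPM, the hyaluronan receptor gene Cd44 89.3 ± 15.7 and 73.5 ± 12.1 CPM, and the branching enzyme gene Mgat4b 7.53 ± 1.80 and 5.82 ± 2.17 CPM (adjusted p = 1.0 each).

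The genes whose pattern was most like that of the members were sought among 8474 protein-coding genes with a mean of at least 10 CPM, by Pearson's r with the mean of the members' standardised log2 values over the 10 libraries. This profile was highest in Chat+ replicates 5 and 1 (1.07 and 0.95), 0.57 in Chat- replicate 4 and lowest in Chat- replicate 3 (-1.17). The closest genes were Endod1 (r = 0.93), Wee1 (r = 0.92), Sirpa, Mrpl36 and Txn1 (r = 0.91 each). Sirpa, which encodes the inhibitory receptor for CD47 on myeloid cells, averaged 38.5 ± 7.04 CPM (SD) over Chat+ and 18.4 ± 6.26 CPM over Chat- (n = 5 each), with 28.2 CPM in Chat- replicate 4. After centring on the group means, which leaves the order of libraries within a group, the closest genes were Litaf (r = 0.95), Mif (r = 0.93), Nedd4l, Rps12 and Rab1a (r = 0.92 each). Litaf had 33.9 CPM in Chat- replicate 4 and 14.3 ± 2.92 CPM in Chat+. These are the largest of many values of r over libraries that share depth and composition, and are given as a description.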

How the data were processed

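Sorted mature Chat+ and Chat- B cells gave the RNA, which was taken up on columns and made into directional libraries, per the labels' protocols. The submitters' processing notes name cutadapt 2.6, Salmon 0.14.2 and the build GRCm38.p6. Neither the annotation nor the strand setting, nor how the table was scaled, is given in the sources used here. The deposited values are log2 values: the lowest, -3.1228, is shared by the libraries, and with that offset (0.1148 CPM) removed each library sums to 1000000 CPM. Depth was estimated from the steps between low values. Whole reads could not be recovered for most genes, and no count model was used.

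Limma 3.58.1 in R 4.3.3 (lmFit, eBayes with a mean-variance trend) was applied to all 14450 genes, unfiltered, with group as its single term. Its p-values are two-sided, adjusted over all genes by Benjamini and Hochberg, with a threshold of 0.05. The fit was also run on simulated data with known changes. There each gene had the same independent spread in every library, so no library stood apart as Chat- replicate 4 does. Fold changes refer to log2(CPM + offset) and so understate differences of low genes. CPM means were taken after removing the offset. Single values were compared with exact two-sided permutation tests. Named relatives were up to 4 genes per list with the smallest p and a mean of at least 5 CPM. Exon lengths and positions come from GENCODE M21 (GRCm38), promoters from RefSeq, and 14374 identifiers had a symbol. The members and lists were chosen with earlier results of these data known. Alternatives were other scalings, a larger offset, a filter, no trend, library quality weights, a block and leaving out each library. Python 3.11.15, pandas 2.3.3 and matplotlib 3.10.9 were used.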

Additional observations from a re-analysis of the deposited data

Results flagged for a closer look

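In groups of 5 libraries, the highest or lowest value was compared with its nearest neighbour, and a gap above 0.71 of the group's range was taken as standing apart. Chance does this in about 1 in 20 groups. It held for 5 of the 18 groups of values. In Chat- replicate 4, Anxa2 at 74.9 CPM (gap of 0.844 of the range), S100a11 at 126 CPM (0.911) and Lgals3 at 28.8 CPM (0.745) stood above the other Chat- libraries. In Chat+ replicate 1, Lgals3 at 28.5 CPM (0.847) stood above the other Chat+ libraries, and in Chat+ replicate 5 Vim did so at 691 CPM (0.716). The 3 values in Chat- replicate 4 come from 1 library and are not independent of one another.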

How the results depend on the processing

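The estimates of 8 of the 9 members were higher in Chat+ under all 20 alternatives run. The log2 fold change of S100a11, -0.23 with all libraries, ran from -0.347 to 0.035 when single libraries were left out, 0.035 being the value without Chat- replicate 4, and was 0.114 when the replicate block and 0.015 when median-ratio scaling was used without that library, but -0.101 with quality weights without it. These 3 settings were chosen after seeing the data. The count of members past the threshold (0) became 3 with library quality weights, and 3 with these weights and 3 with the replicate block once Chat- replicate 4 was also left out. It stayed 0 when any single library was left out. The count over all genes (1) became 3 without the mean-variance trend, 105 with library quality weights and 6 with the replicate block. Without Chat- replicate 4 it was 82 with the block, 82 with the weights and 2 with median-ratio scaling. Leaving out single libraries gave 1 to 6 (6 without Chat+ replicate 5 or Chat- replicate 4, 2 without Chat- replicate 1 or 3). The number of members at an unadjusted p under 0.05, 5 in the main fit, was less stable. It was 2 with median-ratio scaling, and ran from 3 to 7 when single libraries were left out.

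The labels do not say that equal replicate numbers mark 1 animal. Same-numbered libraries correlated at -0.20 to 0.23, 3 of 5 Chat+ libraries correlated best with their own number, and the replicate block with all libraries called 0 members. When single libraries were left out, the group difference in the log2 ratio of S100a10 to Anxa2 ran from -0.898 to -0.431. This difference passed the threshold only without Chat- replicate 4. The group difference in the log2 ratio of Lgals1 to Lgals3 ran from -0.025 to 0.164, and was -0.025 and -0.023 without Chat+ replicates 2 and 3. The co-variation of Ahnak with Anxa2 turned to r = 0.43 without Chat- replicate 4. The cause of these shifts was not tested. Depth limits S100a4, whose lowest value rests on about 19 estimated reads.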
